A study of Homo sapiens with 4 samples.

Results

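The genes described here are 36 human genes of glucose breakdown and of the response to low oxygen, out of 20163 protein-coding genes in the GENCODE annotation of hg19 (GRCh37). They were chosen by name, from what the genes are known to do, but with earlier results of these data known. They fall into 6 role groups: 4 transporters of glucose and lactate, 14 glycolytic enzymes, 3 genes that set the fate of pyruvate, 2 regulators of phosphofructokinase, 4 oxygen sensors and HIF alpha subunits, and 9 hypoxia response targets. All 36 symbols were found in the annotation. A gene was called marked in a cell line when an H3K27ac peak overlapped the stretch of 1 kb either side of any of its transcript starts. A distal peak was a peak in the gene body or within 50 kb of it that overlapped no such stretch of any protein-coding gene.

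Glycolysis splits glucose into pyruvate in the cytosol, and tumour cells often run it at a high rate and release lactate even when oxygen is present. In normal oxygen, the prolyl hydroxylases of the EGLN family modify the HIF alpha subunits HIF1A and EPAS1, which are then destroyed. In low oxygen the alpha subunits persist, pair with ARNT, and bind DNA at the short core motif ACGTG or GCGTG near genes for glucose uptake, glycolysis, acid export, blood vessel growth and mitophagy. H3K27ac, acetylation of lysine 27 of histone H3, is a mark of active promoters and enhancers.

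H3K27ac was profiled by ChIP-seq in 4 established cancer cell lines, with 1 library per line and no treatment. COLO-205, a colon cancer line, was grown in RPMI with FBS; DU-145, a prostate cancer line, in Eagle minimal essential medium with FBS; OVCAR-3 in RPMI 1640 with FBS and SKOV-3 in McCoy's 5a minimal essential medium with FBS, both ovarian cancer lines. DU-145 and SKOV-3 each had a medium that no other line had, so that line and medium cannot be told apart for them, and the oxygen and glucose in the cultures are not given in the sources used here. With no replicate library there is no test between lines, and the intervals stated below are exact 95% Poisson intervals that cover counting error only. The authors' lists held between 75468 and 85576 peaks in COLO-205, DU-145 and OVCAR-3 and 14001 in SKOV-3. The tags behind them, computed from the lists, numbered 22400000 in SKOV-3, the fewest, and 36000000 in DU-145, the most. Of 4 epithelial marker genes, all were marked in COLO-205, DU-145 and OVCAR-3, while SKOV-3 had marks at KRT8 and KRT18 and none at EPCAM and CDH1. Of 5 colon markers, 3 were marked in COLO-205, 1 each in OVCAR-3 and DU-145, and 0 in SKOV-3. Of 5 prostate markers, 2 were marked in DU-145, with KLK3 and HOXB13 among the unmarked, but also 2 in COLO-205 and 2 in OVCAR-3, and 0 in SKOV-3. Of 5 ovarian markers, 5 were marked in OVCAR-3 and 1, PAX8, in SKOV-3, against 4 in COLO-205 and 3 in DU-145. By these markers DU-145 and SKOV-3 did not stand apart as prostate and ovarian. COLO-205 had the most colon markers marked, but more of the ovarian markers than of the colon ones. Of the 4 annotated leukocyte and endothelial markers, CDH5 in DU-145 was the only one marked in any line.

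The sequence in front of these genes is shown first, since HIF binds the core motif near genes of glucose uptake, glycolysis and the hypoxia response. For each gene, 250 bases before to 50 after its principal start (the start of the transcript that the annotation tags as canonical) were searched on both strands for the motifs ACGTG or GCGTG. The first of these was present at 19 of the 36 genes (52.8%), against 23.2% of all protein-coding genes. The motif GCGTG was present at 23 of the 36 (63.9%), against 44.9%. At least 1 of the motifs was present at 33 (91.7%), against 56.4% of all genes and 65.3% of the genes marked in all 4 lines. EGLN3, PFKM and TPI1 had neither in this window. The longer CACGTG, which holds the motif on both strands, was present at 7 (19.4%), namely SLC16A1, ALDOC, LDHA, PFKFB3, BNIP3, BNIP3L and ANKRD37, against 8.73% of all genes. The windows of the 36 genes also held more G and C, with a median of 71.0% against 63.7% for all genes and 68.3% for genes marked in all 4 lines, and the part of base composition in the motif counts was not tested.

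The first 4 stretches belong to genes marked in all 4 lines and show the motif in front of their principal starts. They are the 150 bases before the principal start, read in the direction of transcription from GRCh37, with either motif in capitals on whichever strand it lies, so that a run of capitals may also read CACGT or CACGC. SLC16A3 lies at chr17:80186768-80186917 (+ strand), LDHA at chr11:18415960-18416109 (+ strand), DDIT4 at chr10:74033528-74033677 (+ strand) and ANKRD37 at chr4:186317845-186317994 (+ strand).
SLC16A3: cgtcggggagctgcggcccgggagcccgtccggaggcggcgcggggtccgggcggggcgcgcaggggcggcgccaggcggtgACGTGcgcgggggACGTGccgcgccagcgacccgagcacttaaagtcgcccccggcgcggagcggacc
LDHA: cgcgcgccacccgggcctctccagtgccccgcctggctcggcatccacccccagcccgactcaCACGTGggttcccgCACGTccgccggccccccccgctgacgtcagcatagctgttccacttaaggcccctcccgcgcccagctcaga
DDIT4: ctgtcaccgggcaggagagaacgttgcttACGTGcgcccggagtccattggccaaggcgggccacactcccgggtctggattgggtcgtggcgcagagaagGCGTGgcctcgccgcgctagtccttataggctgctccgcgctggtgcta
ANKRD37: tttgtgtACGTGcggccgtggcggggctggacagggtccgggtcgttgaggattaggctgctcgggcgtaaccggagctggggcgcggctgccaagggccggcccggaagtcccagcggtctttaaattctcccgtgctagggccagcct

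A mark within 1 kb need not cover these bases: the ANKRD37 peaks of COLO-205, DU-145 and SKOV-3 end before the stretch begins. Of the 2 OVCAR-3 peaks at ANKRD37 starts, that with the highest fold, 12.4, also ends before it. No DDIT4 peak covers a DDIT4 start in COLO-205 or SKOV-3. SLC16A3 and LDHA each hold a pair of ACGTG motifs close together within 100 bases of the start, and DDIT4 holds 1 motif of each kind. The next 4 stretches, of the same length and kind, belong to genes whose mark differed between the lines. SLC16A1 at chr1:113498819-113498968 (- strand) was unmarked in COLO-205. HK2 at chr2:75061104-75061253 (+ strand) was unmarked in SKOV-3. EPAS1 at chr2:46524396-46524545 (+ strand) was marked in DU-145 only, and ADM at chr11:10326470-10326619 (+ strand) in every line but DU-145.
SLC16A1: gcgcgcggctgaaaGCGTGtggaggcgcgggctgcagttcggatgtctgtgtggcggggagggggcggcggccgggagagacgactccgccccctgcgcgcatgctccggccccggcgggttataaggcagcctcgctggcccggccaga
HK2: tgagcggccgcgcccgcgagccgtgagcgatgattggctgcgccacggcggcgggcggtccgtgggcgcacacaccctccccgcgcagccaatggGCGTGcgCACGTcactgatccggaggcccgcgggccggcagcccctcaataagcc
EPAS1: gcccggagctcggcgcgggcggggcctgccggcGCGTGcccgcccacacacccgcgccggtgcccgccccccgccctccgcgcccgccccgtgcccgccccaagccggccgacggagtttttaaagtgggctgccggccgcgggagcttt
ADM: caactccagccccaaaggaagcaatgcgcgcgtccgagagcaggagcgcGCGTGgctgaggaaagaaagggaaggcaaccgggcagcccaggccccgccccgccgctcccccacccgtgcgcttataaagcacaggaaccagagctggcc

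For 3 more genes only 30 bases around the motif are given, because the annotation places transcribed sequence in the surrounding bases. They are CA9 at chr9:35673895-35673924 (+ strand), PDK1 at chr2:173420788-173420817 (+ strand) and BNIP3 at chr10:133795544-133795573 (- strand), and the CA9 and PDK1 stretches end at the last base before the principal start.
CA9: tcgtttccaatgCACGTacagcccgtacac
PDK1: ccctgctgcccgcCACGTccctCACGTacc
BNIP3: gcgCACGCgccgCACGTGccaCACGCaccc

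The motif and the mark did not always go together in these windows. CA9 carries a motif right before its start and had no peak within 1 kb of that start in any of the 4 lines, whereas TPI1, with no motif, was marked in 3.

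Most of the 36 genes were marked in most lines. In COLO-205 25 of 36 (69.4%) were marked, against 51.1% of all protein-coding genes. In DU-145 33 (91.7%) were marked, against 59.8%. In OVCAR-3 29 (80.6%) were marked, against 60.5%, and in SKOV-3 23 (63.9%), against 31.6%. The share among the 36 was therefore above that of all genes in each line, by the widest ratio in SKOV-3, whose list is the shortest. When every library was cut to its 14001 peaks with the highest −log10 q, 15 genes were marked in COLO-205 and 22 in DU-145, and 25 in OVCAR-3 and 23 in SKOV-3, against 21.8%, 37.8%, 37.9% and 31.6% of all genes. The places of SKOV-3 as the line with the fewest marks and of DU-145 as that with the most thus did not hold at equal numbers of peaks.

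Marks in all 4 lines were found at 17 genes (47.2%), against 25.2% of all genes, and at 8 (22.2%, against 12.4%) with each list cut to 14001 peaks. The 17 were SLC2A1, SLC16A3, HK1, PFKL, PFKM, ALDOA, ENO1, PKM, LDHA, PFKFB3, HIF1A, EGLN1, EGLN3, VEGFA, NDRG1, DDIT4 and ANKRD37. A further 11 genes (30.6%, against 18.0%) were marked in 3 lines: SLC16A1, HK2, GPI, PFKP, TPI1, GAPDH, PGAM1, PDK1, ADM, BNIP3 and BNIP3L. LDHB, PFKFB4 and CA9 were marked in 2 lines (8.33%, against 16.5%). ALDOC, EPAS1 and CA12 were marked in DU-145 only, so that 3 genes had a mark in 1 line (8.33%, against 15.4%). Under 9 other settings for peaks, windows and starts, the DU-145 mark was kept in 9 at EPAS1, in 5 at ALDOC and in 3 at CA12, whose mark was already lost when −log10 q had to reach 5. SLC2A3 and ENO2 had none in any line (5.56%, against 25.0%). At GPI, PFKM, PGAM1, ENO2, LDHB, EGLN3, CA9, ADM and ANKRD37 at least 1 start window also holds a start of another protein-coding gene, and a peak in such a window cannot be assigned between the genes.

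The ovarian lines OVCAR-3 and SKOV-3 shared marks at 21 of the 36 genes (58.3%), against 30.1% of all genes. In OVCAR-3 but not SKOV-3 there were marks at 8 genes (22.2%, against 30.3%), namely HK2, GPI, TPI1, GAPDH, PGAM1, LDHB, PFKFB4 and BNIP3. With each list cut to 14001 peaks there were 6 (16.7%, against 13.0%), without HK2 and BNIP3. In SKOV-3 but not OVCAR-3 there were marks at PFKP and CA9, so 2 genes (5.56%, against 1.45%). In SKOV-3 the CA9 mark was kept in 5 of those 9 settings and the PFKP mark in 8, both being lost when −log10 q had to reach 10.

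The strength of a mark was read as the fold enrichment of the strongest peak at a start, which the peak caller gives as tag pileup over local background, and as its percentile among all marked protein-coding genes of the same line. The pileup itself, the tags stacked at the peak's summit, is given as tags or per 1000000 tags of the library (RPM), and unless stated it is that of the peak with the highest fold. A peak at the principal start is one that overlaps 1 kb either side of it, and its summit may lie further away. The median fold of the marked genes was 4.45 in COLO-205 and 4.92 in DU-145, and 8.82 in OVCAR-3 and 6.33 in SKOV-3, beside 4.52, 4.77, 7.45 and 5.29 for all marked genes. The median percentile was 47.6 in COLO-205 and 53.7 in DU-145, and 62.4 in OVCAR-3 and 70.8 in SKOV-3. This spread between the lines depended on the measure. Ranked by RPM, with the tallest peak of each gene, the median percentile was 68.5 in COLO-205 and 68.3 in DU-145, and 71.6 in OVCAR-3 and 68.5 in SKOV-3, and ranked by −log10 q it was 61.5, 58.6, 67.8 and 70.4. A mark in the top 25% of the line was found at 5 of the 36 genes in COLO-205 (13.9%, against 12.8% of all genes) and at 7 in DU-145 (19.4%, against 15.0%). It was found at 10 in OVCAR-3 (27.8%, against 15.1%) and at 7 in SKOV-3 (19.4%, against 7.89%).

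**Figure D1:**
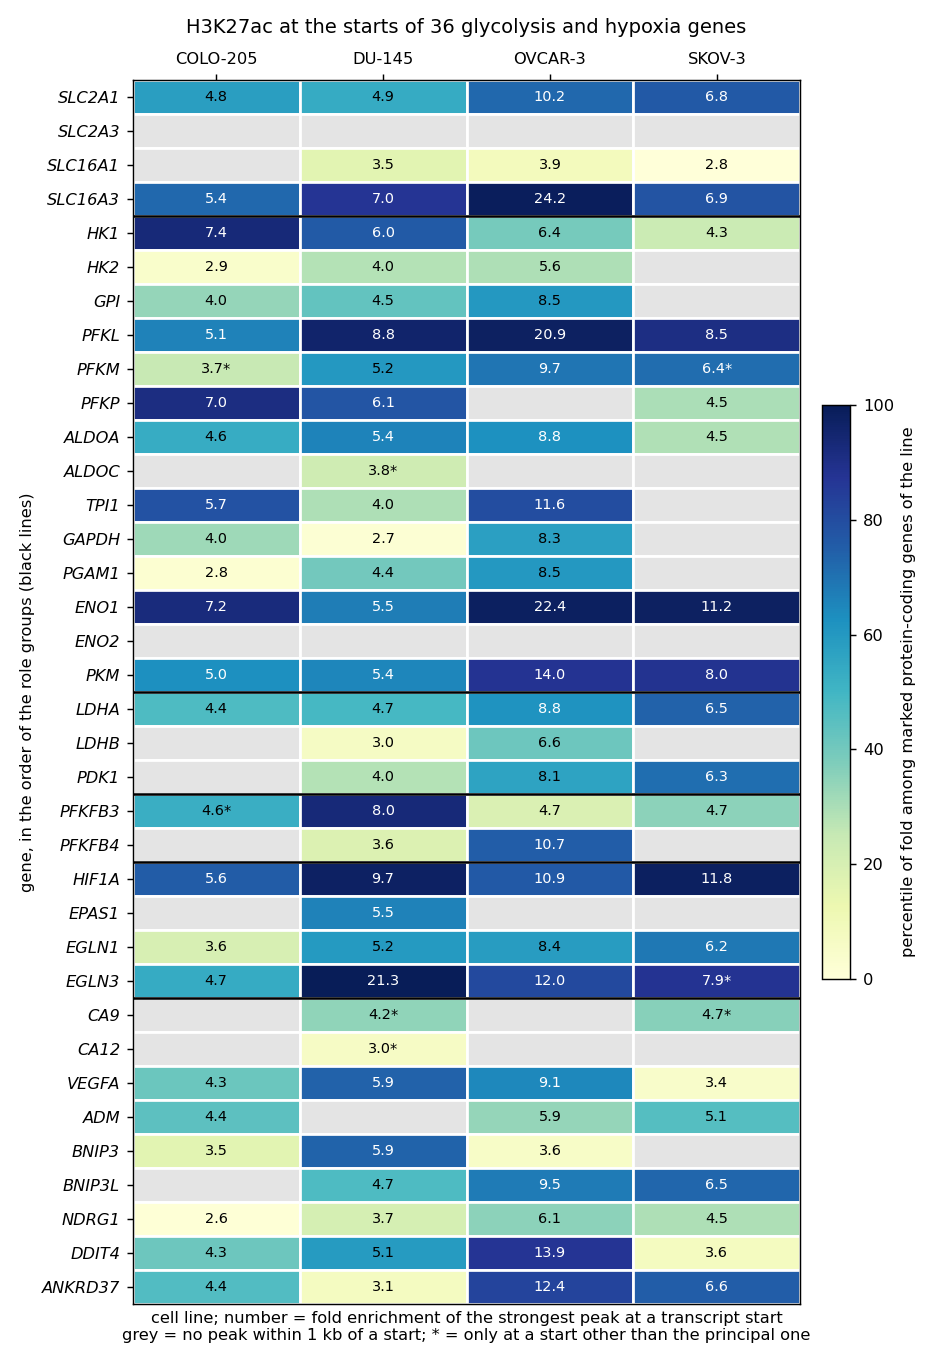
Fold enrichment (numbers) of the strongest H3K27ac peak within 1 kb of a transcript start for 36 genes (rows, in role groups divided by black lines) in 4 cell lines (columns), 1 library each. Colour is the percentile among marked protein-coding genes of the line, grey is no peak, and an asterisk is a peak at a start other than the principal one only. SLC2A3 and ENO2 are grey in all 4 lines, and SLC16A3, ENO1 and PFKL in OVCAR-3 have folds of 24.2, 22.4 and 20.9.

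Among the transporters, SLC2A1 and SLC16A3 were marked in every line, SLC16A1 in 3 and SLC2A3 in none. SLC2A1 (GLUT1), the glucose carrier of most cell types, had a fold at its principal start of 4.79 in COLO-205 and 3.74 in DU-145, and 10.2 in OVCAR-3 and 6.76 in SKOV-3. Its highest percentile was 77.3, in SKOV-3, and its lowest 24.0, in DU-145, among genes marked at a principal start. A start 15630 bp into the gene was also marked, in DU-145, OVCAR-3 and SKOV-3 but not in COLO-205.

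SLC16A3 (MCT4), which exports lactate from glycolytic cells, had the strongest mark of the group. Its fold was 5.40 in COLO-205 and 7.04 in DU-145, and 24.2 in OVCAR-3 and 6.92 in SKOV-3. In OVCAR-3 the peak was 7859 bp wide, held 301 tags at its summit (268 to 337) and stood at the 99.1st percentile of its line. That peak reaches a start 11108 bp upstream of the principal one, with its summit 4779 bp from that start and so outside the window. Of the 110 marks over all genes and lines, 2 had a summit more than 1 kb from the nearest start of the gene, the other being that of HK1 in COLO-205. The peak that overlapped the window of the principal start had a fold of 16.7 in OVCAR-3 and 4.65 in SKOV-3. In OVCAR-3 its summit lay 2447 bp downstream of the principal start. SLC16A1 (MCT1), which carries lactate in either direction, had a low fold wherever it was marked. Its fold was 3.92 in OVCAR-3, 3.52 in DU-145 and 2.77 in SKOV-3, and the last is at the 0.189th percentile of the line. Ranked by RPM it stood at the 30.7th, 42.4th and 34.2nd percentile in these lines. In COLO-205 the nearest peak to an SLC16A1 start was 11115 bp away. SLC2A3 (GLUT3), a high-affinity glucose carrier best known from neurons, had its nearest peak 5788 bp from a start in COLO-205 and 7797 bp in DU-145, with 7854 bp in OVCAR-3 but 1035120 bp in SKOV-3.

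Of the 14 glycolytic enzymes, 12 were marked in COLO-205 (85.7%, against 51.1% of all genes) and 13 in DU-145 (92.9%, against 59.8%). In OVCAR-3 11 were marked (78.6%, against 60.5%) and in SKOV-3 7 of 14, against 31.6%. HK1, PFKL, PFKM, ALDOA, ENO1 and PKM were marked in all 4 lines. ENO1, the widely used enolase, had a fold at its principal start of 7.18 in COLO-205 and 4.57 in DU-145, and 22.4 in OVCAR-3 and 11.2 in SKOV-3. These stand at percentiles of 92.6, 47.4, 98.6 and 98.0, so by fold ENO1 was among the strongest marks of 3 lines. In DU-145 it stood higher when ranked by RPM, at the 78.3rd percentile. PFKL, the liver-type subunit of phosphofructokinase, had a fold of 5.11 in COLO-205 and 8.75 in DU-145, and 20.9 in OVCAR-3 and 8.51 in SKOV-3. PKM, which encodes the pyruvate kinase isoforms of muscle and of dividing cells, had a fold at its principal start of 4.96, 5.31, 13.996 and 8.02 in the same order. Both were above the 60th percentile in every line. ALDOA, the aldolase of muscle and most other tissues, had a fold of 4.64, 5.44, 8.82 and 4.51, with the lowest percentile by fold, 30.2, in SKOV-3. Its pileup in SKOV-3, 2.50 RPM, was above the median of 1.70 RPM for all genes marked at a principal start in that line. HK1, the hexokinase of most tissues, had a fold at its principal start of 3.96, 6.04, 6.40 and 4.33, and its strongest COLO-205 peak, with a fold of 7.37, sat at a start 63870 bp downstream that was marked in COLO-205 and OVCAR-3 only.

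The 3 phosphofructokinase genes differed in which of their starts was marked. PFKM, the muscle-type subunit, was marked in all lines at a group of starts 14225 bp upstream of the principal start, with a fold of 3.75 in COLO-205 and 5.16 in DU-145, and 9.73 in OVCAR-3 and 6.37 in SKOV-3. This window is shared with a start of SENP1, so a mark there cannot be given to either gene. At its principal start PFKM was marked in DU-145 (4.11) and OVCAR-3 (7.28) only. PFKP, the platelet-type subunit, was the only enzyme of the 14 that was marked in every line but OVCAR-3. Its fold was 6.98 in COLO-205, 6.12 in DU-145 and 4.55 in SKOV-3. In OVCAR-3 the nearest peak was 13241 bp from a start.

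HK2, GPI, TPI1, GAPDH, PGAM1 and BNIP3 were marked in COLO-205, DU-145 and OVCAR-3 but not in SKOV-3. Such a pattern was found at 16.7% of the 36 genes and at 13.0% of all genes, so its share was near the background. With each list cut to 14001 peaks, GPI and TPI1 had the pattern (5.56%, against 2.07% of all genes), while HK2, GAPDH, PGAM1 and BNIP3 lost a mark in at least 1 other line. HK2, the hexokinase typical of tumours and muscle, had a fold of 2.95 in COLO-205, 3.97 in DU-145 and 5.57 in OVCAR-3. GPI, which converts glucose 6-phosphate to fructose 6-phosphate, had a fold of 4.01, 4.50 and 8.52, and PGAM1, the phosphoglycerate mutase, 2.82, 4.39 and 8.50. GAPDH, the dehydrogenase often used as a reference gene, had a fold of 3.97, 2.66 and 8.26. TPI1, the triose phosphate isomerase, had a fold of 5.72, 4.01 and 11.6.

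In tags, the GAPDH peak held 77 in COLO-205, 69 in DU-145 and 192 in OVCAR-3. In SKOV-3 the nearest peak was 82247 bp from a start of GAPDH and 57742 bp from a start of TPI1. These genes, with ENO2, SLC2A3 and LDHB, lie on the short arm of chromosome 12, and few of the genes around them were marked in SKOV-3 either. Of the protein-coding genes within 1 Mb, 4 of 51 were marked around GAPDH (7.84%), 4 of 58 around TPI1 (6.90%), 0 of 37 around SLC2A3 and 0 of 20 around LDHB, against 31.6% of all genes. In OVCAR-3 70.6% of the genes around GAPDH were marked, 62.1% around TPI1, 40.5% around SLC2A3 and 10 of 20 around LDHB, against 60.5%. In COLO-205, where GAPDH and TPI1 were marked, the shares were 33.3%, 32.8%, 21.6% and 15.0%, against 51.1%. In DU-145 they were 58.8%, 53.4%, 37.8% and 25.0%, against 59.8%. The part of the surrounding region in the absence of these marks was not tested. EGLN1, by contrast, was marked in SKOV-3 with 0 of 18 neighbours marked, and LDHA with 3 of 31.

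The 2 enzymes best known from nerve cells, ALDOC and ENO2, had 1 mark at a start between them. ALDOC had 1 peak, in DU-145, with a fold of 3.76 at a start that is not its principal one. Around ALDOC there were nevertheless 33 distal peaks in DU-145, against 4 in COLO-205, 7 in OVCAR-3 and 0 in SKOV-3. ENO2 had no peak at a start in any line, with the nearest at 3974 bp in COLO-205 and 2891 bp in OVCAR-3, and 2833 bp in DU-145 but 5771 bp in SKOV-3.

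At the branch point of pyruvate, LDHA was marked in all lines, PDK1 in 3 and LDHB in 2. LDHA, the lactate dehydrogenase subunit that favours lactate production, had a fold at its principal start of 4.45 in COLO-205 and 4.70 in DU-145, and 8.79 in OVCAR-3 and 6.53 in SKOV-3. These peaks had a pileup of 0.943 RPM in DU-145 (0.653 to 1.32), 1.85 in COLO-205 (1.39 to 2.40), 2.95 in SKOV-3 (2.28 to 3.75) and 3.95 in OVCAR-3 (3.31 to 4.67). The place of DU-145 rests on the choice of peak, since a taller LDHA peak of lower fold in that line, 3.89, held 2.03 RPM (1.59 to 2.55), which overlaps the intervals of COLO-205 and SKOV-3. The intervals of SKOV-3 and OVCAR-3 also overlap. LDHB, the subunit that favours use of lactate, had a fold of 3.04 in DU-145 and 6.57 in OVCAR-3, while the nearest peak was 288476 bp away in COLO-205 and 1085694 bp in SKOV-3. PDK1, the kinase that keeps pyruvate out of the mitochondrial pyruvate dehydrogenase, had a fold of 8.10 in OVCAR-3, 6.33 in SKOV-3 and 3.97 in DU-145. In COLO-205 its nearest peak was 40688 bp away.

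PFKFB3 and PFKFB4 make fructose 2,6-bisphosphate, the activator of phosphofructokinase. PFKFB3 was marked in all lines, but at different starts. At its principal start the fold was 8.03 in DU-145, 4.41 in SKOV-3 and 4.72 in OVCAR-3, and COLO-205 had no peak. At a start 39099 bp upstream all 4 lines had a peak, with a fold of 4.60 in COLO-205 and 3.13 in DU-145, and 2.69 in OVCAR-3 and 4.70 in SKOV-3. Of these starts, the principal one was the stronger of the pair in DU-145 and OVCAR-3, and the upstream one in COLO-205 and, by a small margin, in SKOV-3. PFKFB4 was marked in DU-145, with a fold of 3.59, and in OVCAR-3, with 10.7, and its nearest peak was 47062 bp away in COLO-205 and 55986 bp in SKOV-3.

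HIF1A, the alpha subunit present in most cells, was marked in every line and by fold stood above the 75th percentile in each. Its fold at the principal start was 5.59 in COLO-205 and 6.36 in DU-145, and 10.9 in OVCAR-3 and 11.8 in SKOV-3, at percentiles of 77.4, 82.2, 77.4 and 98.4. EPAS1, the second alpha subunit, also called HIF2A, was marked in DU-145 only, by a peak 2842 bp wide with a fold of 5.46 and 81 tags (64.3 to 101). In the other lines its nearest peak was 7002 bp from a start in COLO-205, 26585 bp in OVCAR-3 but 64186 bp in SKOV-3.

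The hydroxylases EGLN1 and EGLN3 were marked in every line by the rule, but EGLN3 in SKOV-3 only at a far start. EGLN1 had a fold of 3.60 in COLO-205 and 5.15 in DU-145, and 8.41 in OVCAR-3 and 6.17 in SKOV-3. EGLN3 has an annotated start 511700 bp upstream of its principal one, in a window shared with SPTSSA, and the strongest peak of each line lay there, with a fold of 4.65, 21.3, 12.0 and 7.94. These peaks cannot be given to EGLN3 rather than SPTSSA. At its principal start EGLN3 had a fold of 4.07 in COLO-205, 8.55 in DU-145 and 4.51 in OVCAR-3 and no peak in SKOV-3.

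Of the 9 hypoxia response targets, VEGFA, NDRG1, DDIT4 and ANKRD37 were marked in all 4 lines. VEGFA, the growth factor for blood vessels, had a fold of 4.26 in COLO-205 and 5.89 in DU-145, and 9.11 in OVCAR-3 and 3.41 in SKOV-3. Its peak was 292 bp wide in SKOV-3, 1009 bp in COLO-205, 2920 bp in OVCAR-3 and 6630 bp in DU-145, a wider range than that of the fold. DDIT4 (REDD1), an inhibitor of mTORC1 induced by stress, had a fold of 4.26, 5.13, 13.9 and 3.65, at percentiles of 41.4, 59.1, 87.3 and 8.19. ANKRD37, an ankyrin repeat gene, had a fold of 4.42, 3.08, 12.4 and 6.61, in a window shared with LRP2BP. NDRG1 had a fold at its principal start of 2.62, 3.69, 5.61 and 4.52, and by fold its 1.09th percentile in COLO-205 was the lowest of the marked genes in that line, whereas ranked by RPM it stood at the 73.3rd.

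ADM, BNIP3 and BNIP3L were each missing in 1 line, and not the same one. ADM, the vasodilator peptide adrenomedullin, had a fold of 4.35 in COLO-205, 5.92 in OVCAR-3 and 5.11 in SKOV-3, and in DU-145 its nearest peak was 10597 bp away. DU-145 marked the most of the 36 genes and missed only ADM, SLC2A3 and ENO2. With each list cut to 14001 peaks it marked 22, fewer than OVCAR-3 with 25 and SKOV-3 with 23. BNIP3 and BNIP3L are mitophagy receptors. BNIP3 had a fold of 3.50 in COLO-205, 5.86 in DU-145 and 3.62 in OVCAR-3, while its nearest peak in SKOV-3 was 326319 bp away. BNIP3L had a fold of 9.49 in OVCAR-3, 6.46 in SKOV-3 and 4.65 in DU-145, and in COLO-205 the nearest peak was 54056 bp away.

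CA9 and CA12 encode carbonic anhydrases of the cell surface that help to export acid, and neither had a peak at its principal start in any line. CA9 was marked at a start 2235 bp downstream in SKOV-3, with a fold of 4.71 and 24 tags (15.4 to 35.7), and at a start 6773 bp downstream in DU-145, with 4.19 and 25 tags (16.2 to 36.9). CA12 was marked at a start 50033 bp downstream in DU-145, with a fold of 3.03 and 22 tags (13.8 to 33.3). In COLO-205 and OVCAR-3 peaks lay 1694 bp and 1330 bp from a CA12 start, just outside the window.

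OVCAR-3 had the highest pileups. At principal starts, 14 of the 36 genes had a peak in all 4 lines, and OVCAR-3 had the highest RPM at 13 of them, HK1 being the exception, with 2.64 in DU-145 (2.13 to 3.22) and 2.25 in OVCAR-3 (1.78 to 2.81). Among all 4563 protein-coding genes with such peaks OVCAR-3 was highest at 79.3%, so most of this order is shared by marked genes at large. Some of these peaks have a summit more than 1 kb from the principal start. They are those of SLC16A3 in OVCAR-3 (2447 bp), VEGFA in OVCAR-3 (1534 bp) and COLO-205 (1052 bp), and PKM in SKOV-3 (1070 bp). The widest differences in RPM to the next line were at ENO1 and PKM. ENO1 had 8.68 RPM in OVCAR-3 (7.72 to 9.73) and 4.29 in SKOV-3 (3.47 to 5.23), the next highest. PKM had 7.51 in OVCAR-3 (6.62 to 8.49) and 2.86 in SKOV-3 (2.20 to 3.65). At SLC2A1, HK1, LDHA, HIF1A, EGLN1, VEGFA and NDRG1 the interval of OVCAR-3 overlapped that of at least 1 other line. Overlap of separate intervals does not decide whether such a difference is within counting error, and the differences were not tested. COLO-205 was the lowest line at 8 of the 14 genes, DU-145 at 3 and SKOV-3 at 3, beside 46.0%, 18.9% and 31.7% of the 4563 genes. With the tallest peak at each start, COLO-205 was lowest at 9, DU-145 at 2 and SKOV-3 at 3, and OVCAR-3 was again highest at 13.

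**Figure D2:**
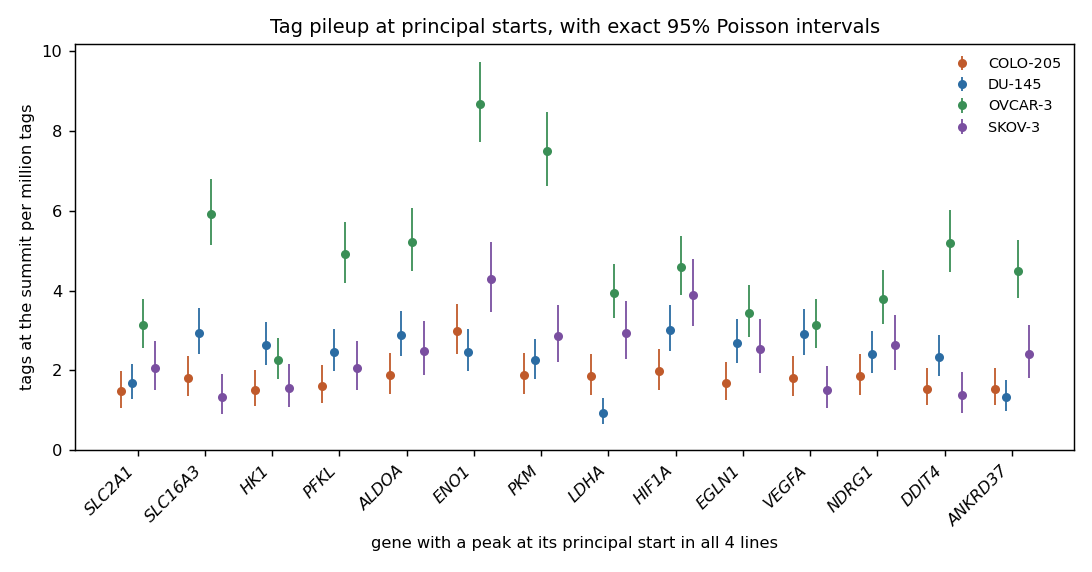
Summit tags per 1000000 library tags, RPM (vertical axis), at the principal starts of the 14 genes with a peak there in all 4 lines (horizontal axis), 1 library per line. Points are values recovered from the peak lists and bars are exact 95% Poisson intervals for counting error. The summits of SLC16A3 and VEGFA in OVCAR-3, VEGFA in COLO-205 and PKM in SKOV-3 lie more than 1 kb from the principal start. OVCAR-3 is highest at 13 of 14 genes, with 8.68 at ENO1 and 7.51 at PKM.

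Distal peaks were counted around all 36 genes. The sums were 191 in COLO-205 and 758 in DU-145, and 359 in OVCAR-3 and 62 in SKOV-3, and the median per gene was 2.5, 9, 4 and 0, beside 2, 2, 1 and 0 for all protein-coding genes. Among marked genes only, the median was 3, 15, 4 and 1, beside 4, 3, 2 and 0 for all marked genes, so in COLO-205 it was then below that of all. With each list cut to 14001 peaks the sums were 17, 123, 34 and 62, which puts SKOV-3 second. At least 1 distal peak was found at 30 genes (83.3%) in COLO-205, against 73.6% of all genes. In DU-145 it was 29 (80.6%), against 63.4%, in OVCAR-3 29 (80.6%), against 59.2%, and in SKOV-3 14 (38.9%), against 21.8%. GAPDH and LDHB had no distal peak in any line.

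Joined over lines, the distal peaks made 1082 regions around 34 genes, of which 891 (82.3%) were found in 1 line, against 87.5% of the 133177 distal regions around all protein-coding genes. A further 144 were found in 2 lines, 38 in 3 and 9 in all 4 (0.832%, against 0.39%). EGLN3 alone had 276 of the 891, and without it the share in 1 line was 78.2%. Of those 9, 5 were around DDIT4. They are centred 12970 bp upstream of its start and 23902, 25180, 34686 and 47539 bp downstream of it. The last of them held the strongest distal DDIT4 peak of every line, with a fold of 7.27 in COLO-205 and 11.8 in DU-145, and 15.1 in OVCAR-3 and 6.27 in SKOV-3. In each of the 4 lines this fold exceeded that at the DDIT4 start. In tags the order turned in OVCAR-3, with 92 at the distal summit and 178 at the start. The other 4 shared regions were around SLC2A1, SLC16A3, HK1 and BNIP3L, with 1 each. LDHA had a peak about as far upstream in 3 lines, at 10322 bp in DU-145 with a fold of 8.18, at 10467 bp in OVCAR-3 with 7.38 and at 10307 bp in SKOV-3 with 10.3. Distal peaks are placed by distance only, and which gene they act on was not measured.

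EGLN3, ENO1, SLC16A3, DDIT4 and HK1 had the most distal peaks. EGLN3 had 16 in COLO-205 and 294 in DU-145, and 9 in OVCAR-3 and 1 in SKOV-3. Its annotated body of 538548 bp, set by the far start, takes in much of this. With the body of the principal transcript, of 26848 bp, the counts were 5, 55, 0 and 0. Chromosome 14 held 101 peaks per Mb in DU-145, 4.38 times its median chromosome, against 0.733 to 1.48 times in the other lines, and the part of this density in the EGLN3 and HIF1A counts was not tested. HIF1A, on the same chromosome, had 2 distal peaks in COLO-205 and 36 in DU-145, and 1 in OVCAR-3 and 12 in SKOV-3. Without these 2 genes the DU-145 sum was 428, still the highest of the 4.

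ENO1 had 3 distal peaks in COLO-205 and 25 in DU-145, and 74 in OVCAR-3 and 5 in SKOV-3, and the strongest in OVCAR-3, 25763 bp upstream, had a fold of 20.1. Chromosome 1 held 1.5 times the peak density of the median chromosome in OVCAR-3 and 0.903 to 1.00 times in the other lines, and 15 of the 16 genes within 1 Mb of ENO1 were marked in OVCAR-3, against 11 or 12 in the others, whose part in the count was not tested. SLC16A3 had 24, 23, 47 and 2. It lies on chromosome 17, whose peak density was 2.31 to 2.77 times the median chromosome in all lines. DDIT4 had 21, 30, 31 and 13, and HK1 23, 25, 21 and 4. Both had at least 20 distal peaks in each line but SKOV-3.

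The largest differences between lines were at EGLN3, ENO1, SLC16A3, PFKFB3 and PFKFB4. PFKFB3 had 19 distal peaks in COLO-205 and 38 in DU-145, and 3 in OVCAR-3 and 2 in SKOV-3. PFKFB4 had 36 in OVCAR-3, 1 in DU-145 and 0 in COLO-205 and SKOV-3, on chromosome 3, which held 2.19 times the density of the median chromosome in OVCAR-3 and 0.563 to 0.668 times in the other lines. ALDOC, as given above, and HIF1A had their highest counts in DU-145. VEGFA had 31 distal peaks in DU-145 and 0 in each of the other lines. PFKP had 34 in DU-145 and 3 in OVCAR-3, where its start was unmarked. GPI had 20 in OVCAR-3 and 0 in SKOV-3, on chromosome 19, with 3.72 and 2.93 times the density of the median chromosome.

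**Figure D3:**
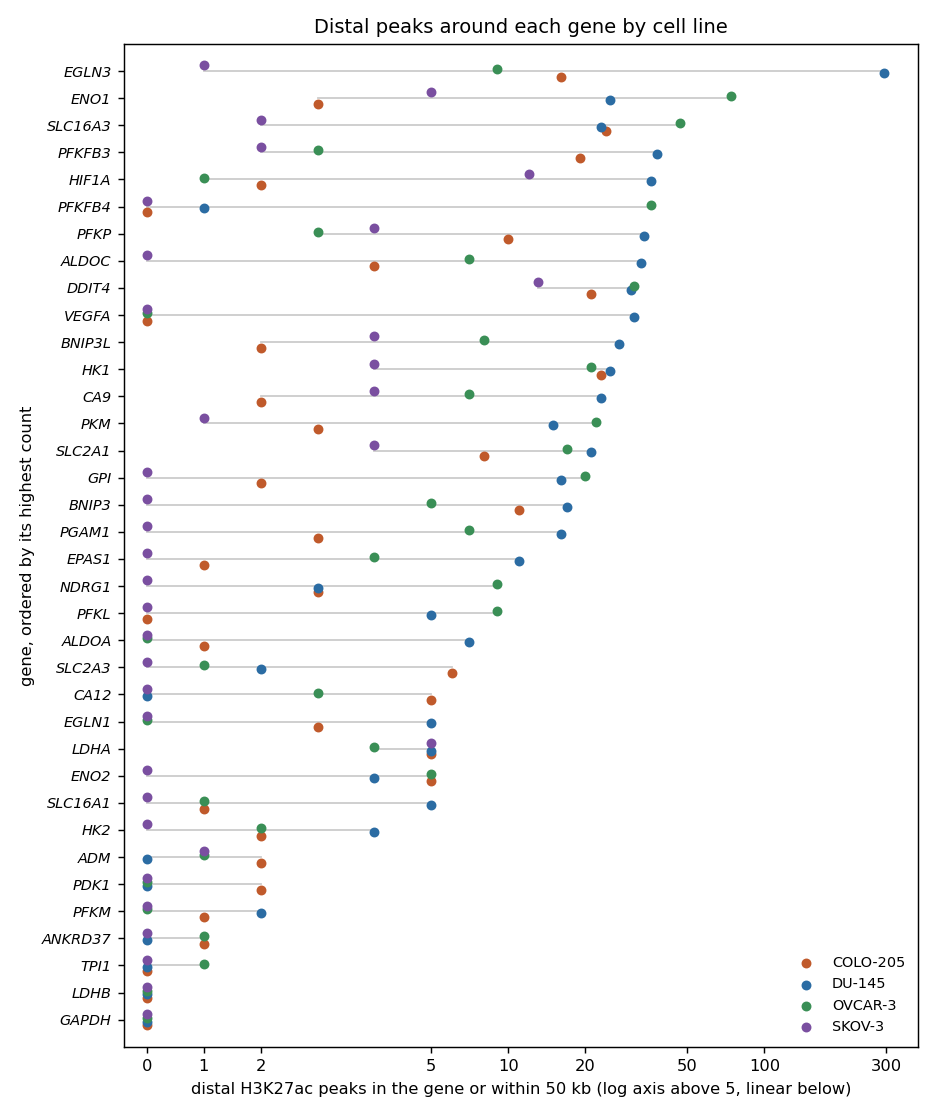
Number of distal H3K27ac peaks in the gene or within 50 kb of it (horizontal axis, linear below 5 and logarithmic above) for each of 36 genes (vertical axis, ordered by the highest count). Each point is 1 cell line with 1 library and the grey line joins the lowest and highest. EGLN3 in DU-145 stands alone at 294, and GAPDH and LDHB are at 0 in all lines.

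**Figure D4:**
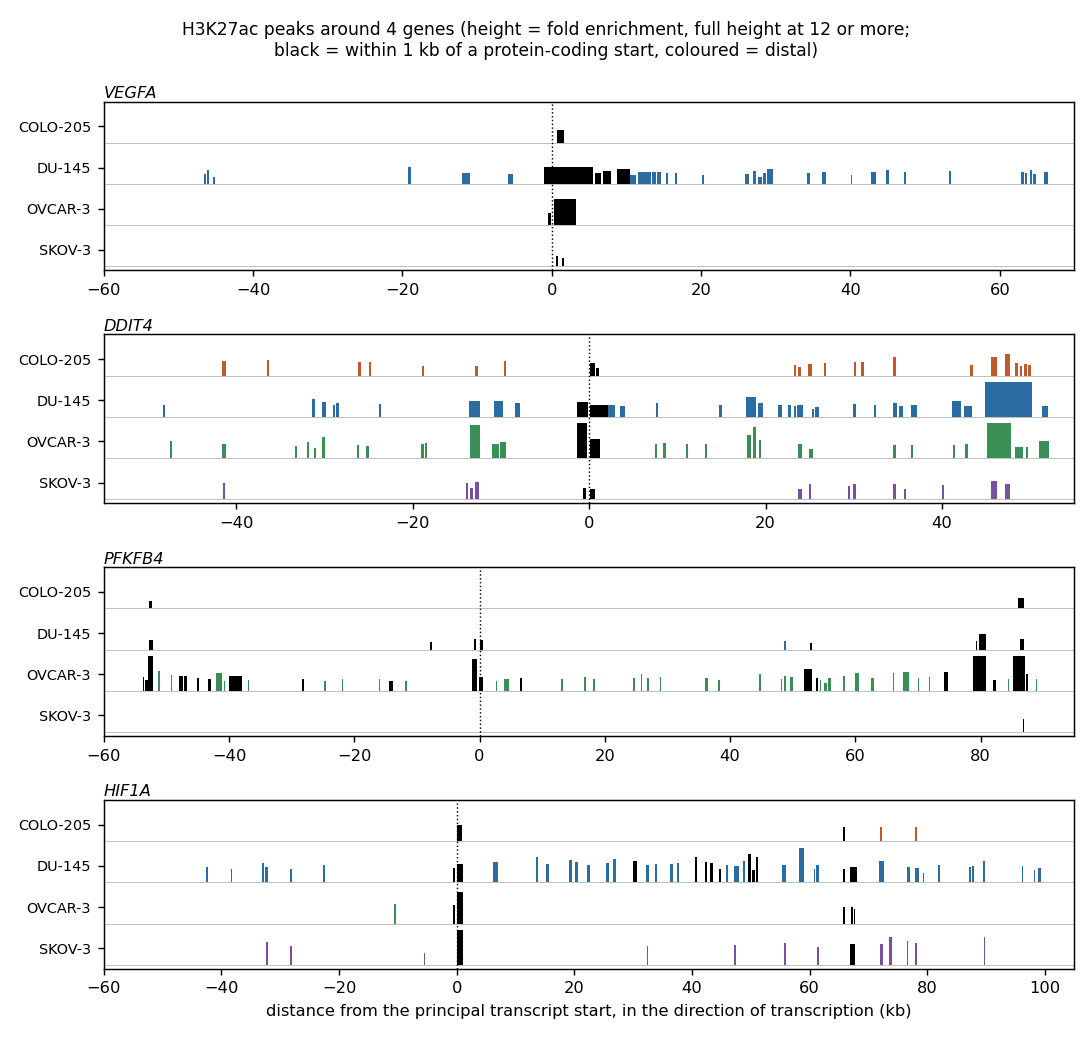
Peaks around VEGFA, DDIT4, PFKFB4 and HIF1A by distance in kb from the principal start (horizontal axis) in the 4 lines (rows), with bar height as fold enrichment, full at 12 or more. Black peaks touch the window of 1 kb either side of a protein-coding start and coloured peaks are distal. VEGFA has distal peaks in DU-145 only, PFKFB4 has 36 in OVCAR-3, and the region about 47 kb downstream of DDIT4 is marked in every line.

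A few genes had distal peaks without a mark at a start. They were 9 in COLO-205 (25.0%, against 29.3% of all genes), 2 in DU-145 (5.56%, against 16.5%), 7 in OVCAR-3 (19.4%, against 16.2%) and 0 in SKOV-3 (0.0%, against 11.1%). In OVCAR-3 they included EPAS1, with 4 distal peaks, PFKP, with 3, and CA9, with 7.

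Other genes of the same pathways were counted in the same way. Of 8 further regulators of HIF, 7 were marked in COLO-205 (87.5%, against 51.1% of all genes) and 7 in DU-145 (87.5%, against 59.8%). In OVCAR-3 all 8 were marked, against 60.5%, and in SKOV-3 5 (62.5%, against 31.6%). EP300 and CREBBP, the acetyltransferases that HIF recruits and that place H3K27ac, were marked in all lines, EP300 with a fold of 9.01, 6.24, 13.5 and 12.2. HIF3A, another alpha subunit, was marked in OVCAR-3 only, with a fold of 3.85. Of 14 further hypoxia targets, 9 were marked in COLO-205 (64.3%, against 51.1%) and 13 in DU-145 (92.9%, against 59.8%). In OVCAR-3 11 were marked (78.6%, against 60.5%) and in SKOV-3 8 (57.1%, against 31.6%). PGK1, the glycolytic phosphoglycerate kinase, was marked in OVCAR-3 (10.7) and SKOV-3 (5.31) and not in COLO-205 or DU-145. It lies on chromosome X, which held 0.0659 times the peak density of the median chromosome in COLO-205 and 0.0503 times in DU-145. The ratio was 0.292 in both OVCAR-3 and SKOV-3, and the part of this density in the PGK1 marks was not tested. ERO1A, an oxidase of the endoplasmic reticulum, was marked in all 4, with a fold of 5.61, 9.14, 15.5 and 9.87.

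Isozymes best known from other tissues had their highest count of marks in COLO-205. Of 12 of them, 8 were marked in COLO-205 (66.7%, against 51.1% of all genes) and 4 in DU-145 (33.3%, against 59.8%). In addition, 2 were marked in OVCAR-3 (16.7%, against 60.5%) and 1 in SKOV-3 (8.33%, against 31.6%). ENO3, the muscle enolase, was marked in every line by the rule, with a fold of 6.32, 8.62, 10.7 and 4.78. Start windows shared with another protein-coding gene were not looked for in these isozymes or in the other further lists. The ENO3 peaks therefore cannot be assigned to ENO3 rather than to a neighbouring gene. HK3, a hexokinase of blood cells, was marked in COLO-205 only, with a fold of 4.66 and 24 distal peaks.

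**Figure D5:**
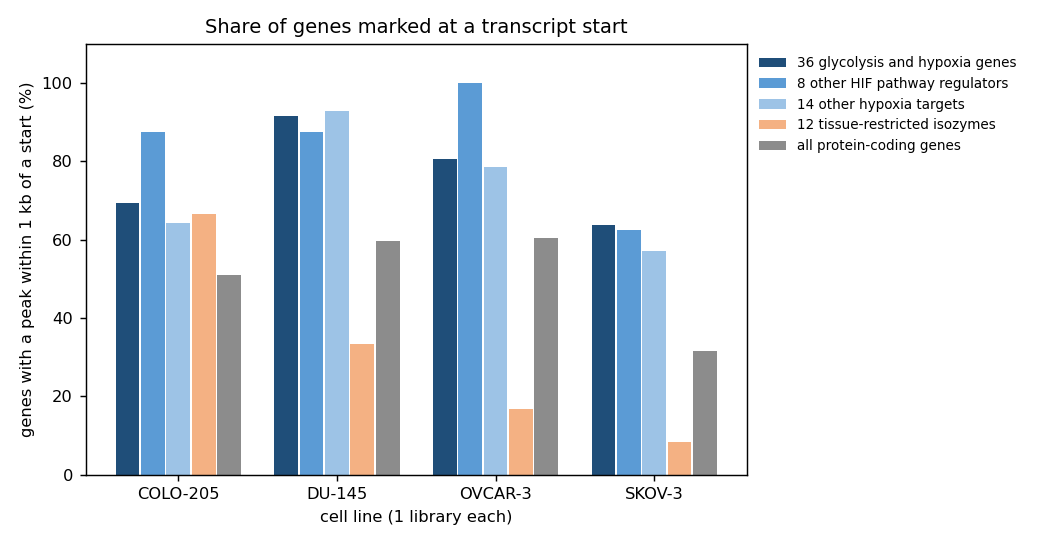
Share of genes with an H3K27ac peak within 1 kb of a transcript start (vertical axis, %) in each of 4 cell lines (horizontal axis, 1 library each), for the 36 genes, for 3 other lists and for all protein-coding genes. The bar of the 36 genes is above that of all genes in each line, with 91.7% against 59.8% in DU-145 and 63.9% against 31.6% in SKOV-3, and the tissue-restricted isozymes reach 66.7% in COLO-205 and 8.33% in SKOV-3.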

How the data were processed

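H3K27ac ChIP-seq was analysed in 4 cell lines with 1 library each. Per the methods and the submitters' processing notes, the authors mapped reads to hg19 with Bowtie2 2.1.0, and MACS2 2.1.0.20150603 called the narrow peaks, library by library, at a q-value below 0.001. The deposited lists give each peak's position, a whole-number score, its fold enrichment, and the −log10 of its p-value and of its q-value, without scaling from library to library. Merging of peaks under 350 bp apart is described in the methods, but closer neighbours stand in the deposited lists, so peaks were used unmerged.

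The tag pileup at each summit was solved from the fold and the −log10 p, within 0.001 on the −log10 scale. Tags per library follow from the lowest background over 2700000000 genome positions at the width of the smallest peak. Genes, starts and sequence came from GENCODE release 44 lifted to GRCh37 and the GRCh37 assembly, the build of the peak lists. Overlap was at least 1 bp. The principal start is that of the canonical transcript, or of the longest where none is tagged.

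The functions were tested on simulated peaks with known answers. No test was made between lines. Every gene is accounted for, and values are given for genes unmarked in a line, the highest and lowest of each role group, and those with the most or most unequal distal peaks. The 36 genes, the other lists and the markers were chosen with earlier results of these data known. PECAM1 was looked for as a marker under that symbol and not matched. Alternatives were stricter peaks, equal numbers of peaks, merging, other windows, starts and distances. The software was pandas 2.3.3, numpy 2.4.6, matplotlib 3.10.9 and scipy 1.17.1 under Python 3.11.15.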

Additional observations from a re-analysis of the deposited data

How the results depend on the processing

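The number of genes marked in a line moved by at most 1.5 times in 35 of 36 values under other settings, and the exception was COLO-205 with 15 genes, in place of 25, at equal numbers of peaks. The number marked in all 4 lines, 17, was 8 at equal numbers of peaks. The number marked in no line, 2, became 5 when −log10 q had to reach 10, 5 at equal numbers of peaks, 5 with a peak covering the start, 5 with the principal start only and 4 with starts of protein-coding transcripts. The median percentiles of the mark moved by at most 1.5 times in all 16 values, but ranked by RPM the difference between the lines was lost, with COLO-205 at 68.5 in place of 47.6 and DU-145 at 68.3 in place of 53.7. Distal sums moved most. When −log10 q had to reach 10 they were 166 and 27 in OVCAR-3 and SKOV-3, and 49 and 381 in COLO-205 and DU-145. At equal numbers of peaks they were 17, 123 and 34 in COLO-205, DU-145 and OVCAR-3, so SKOV-3, with 62, then stood above COLO-205 and OVCAR-3. Within 20 kb they were 101 in COLO-205, 204 in OVCAR-3 and 33 in SKOV-3, and within 100 kb 298 in COLO-205 and 558 in OVCAR-3. In settings added after the data were seen, which include the tallest peak and the share without EGLN3 given above, the DU-145 sum was 480 with the body of the principal transcript and 428 without chromosome 14. No paired analysis was possible because each cell line has 1 library. A start without a peak may carry the mark below the peak caller's threshold, and why the SKOV-3 list is the shortest was not tested.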
